A study of Mus musculus with 6 samples.

Results

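TGF-beta and activin signalling was examined through 10 genes: the ligand genes Tgfb1, Tgfb2, Tgfb3, Inhba and Inhbb, the latency gene Ltbp1, the receptor genes Tgfbr1, Tgfbr2 and Tgfbr3, and the response gene Tgfbi. Every probe set that the platform annotation gives to 1 of these symbols alone was taken, which gave 26 of the 45037 probe sets and 10 of the 18193 named genes. The arrays (Affymetrix MOE430 2.0) read total RNA from back skin of mouse embryos at stage E15.5. There were 3 arrays from Fzd6 +/- embryos (control, 1 mutant copy of Fzd6) and 3 from Fzd6 -/- embryos (knockout, both copies mutant), all of a C57BL6/129 mixed strain. Both groups thus carry the Fzd6 mutation, and no wild-type skin was analysed here. The labels call the samples biological replicates without saying whether each is 1 embryo, so the p-values measure only the spread between these samples. Fzd6 encodes a Frizzled receptor of the planar cell polarity pathway, which orients hair follicles along the body.

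Ligands of this family are made as precursors and, for the TGF-betas, kept latent in the matrix by binding proteins such as Ltbp1 until they are released. They bind a pair of serine/threonine kinase receptors, and the activated type I receptor phosphorylates Smad2 and Smad3, which enter the nucleus with Smad4 and regulate target genes. In skin the pathway is known for restraining keratinocyte division, for promoting matrix production by dermal fibroblasts and, through Tgfb2, for hair follicle formation. Activins, the dimers of Inhba and Inhbb products, act through their own receptors and the same Smads, and follistatins bind and neutralise them.

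Values are RMA expression values on the log2 scale, as deposited, where a difference of 1 is a doubling. RMA corrects the background, makes the arrays' distributions nearly equal and summarises the probes of each set, and it pulls differences of dim probe sets toward 0. Array medians lay between 5.99 and 6.03, and 17 of the 26 probe sets had a mean above the median of all probe sets. Brightness also depends on the probes, so levels of different genes were not ranked. Skin markers were bright, with basal epidermis markers at 9.15 to 13.4 and fibroblast markers at 10.1 to 14.1. The brightest Fzd6 probe set averaged 9.38 ± 0.23 over the controls and 8.93 ± 0.19 over the knockouts (log2, SD, n = 3). A dim Fzd6 probe set averaged 6.13 ± 0.074 and 5.46 ± 0.089, a difference of −0.67 (95% interval −0.87 to −0.47). Another, just above the median of all probe sets, differed by −0.0097. The brightest differed by −0.44 (−0.78 to −0.11). In it and in the dim one the knockout values lay wholly below the control values, as in 5.0% of all probe sets. None of the 3 passed the adjusted test, as did none on the array. Signal thus remained in the knockout, and where its probes lie relative to the mutation was not analysed here. Y-linked genes lay low in control 2 and knockout 3, at deviations of −3.32 and −3.30 from their 6-array means against 1.43 to 1.94 in the other 4 arrays. The arrays numbered 1 stood apart from the rest of their group in many of the results that follow.

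No gene of the group passed the test between genotypes. Knockout and control were compared with limma over all 45037 probe sets, and 0 of 26 member probe sets passed an adjusted p of 0.05, as did none on the array (0.0% called). The smallest adjusted p of a member was 0.909 in limma. In their brightest probe set, 9 of 10 genes had a lower mean in the knockout, with a median difference of −0.23, where 47.6% of all genes were lower with a median of 0.0070. The differences ran from −0.35 for Tgfbi to 0.013 for Tgfb1, and the median 95% interval reached 0.53 to either side, so changes of that size would often not be separated from 0 by these 6 arrays. At an unadjusted p under 0.05 there were 2 member probe sets, 1 of Tgfb2 and 1 of Tgfbr3, both lower. Over all probe sets, 2.63% were lower and 2.58% higher at that level. The knockout values lay wholly below the control values in 3 probe sets, of Tgfb2, Tgfbr1 and Tgfbr3, and wholly above in 0, where 5.0% and 6.55% of all probe sets did so.

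The replicate numbers 1 to 3 were taken as pairs by a correlation in these same values, given with the processing, and the labels state no pairing. Of the arrays low in Y-linked genes, control 2 falls in pair 2 and knockout 3 in pair 3, so both pairs join unlike arrays. The pairing changed the counts at the unadjusted level. With the replicate number as a block, 11 of 26 member probe sets had an unadjusted limma p under 0.05, all of them lower, where 6.88% of all probe sets were lower and 5.15% higher at that level. The 11 belong to 6 genes, Tgfb2, Tgfb3, Ltbp1, Tgfbr2, Tgfbr3 and Tgfbi, and probe sets of 1 gene read the same RNA. None passed the adjusted threshold in the blocked limma fit (smallest adjusted p = 0.335), while 3 probe sets on the whole array did (0.00666% called). In 7 of the 10 genes the brightest probe set was lower in the knockout within every numbered pair, and in 0 it was higher in every pair, beside 17.6% and 19.1% of all genes. The 7 include Tgfbr1 and Tgfb3, whose pair 3 was nearly level, at −0.00072 and −0.0014.

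**Figure D1:**
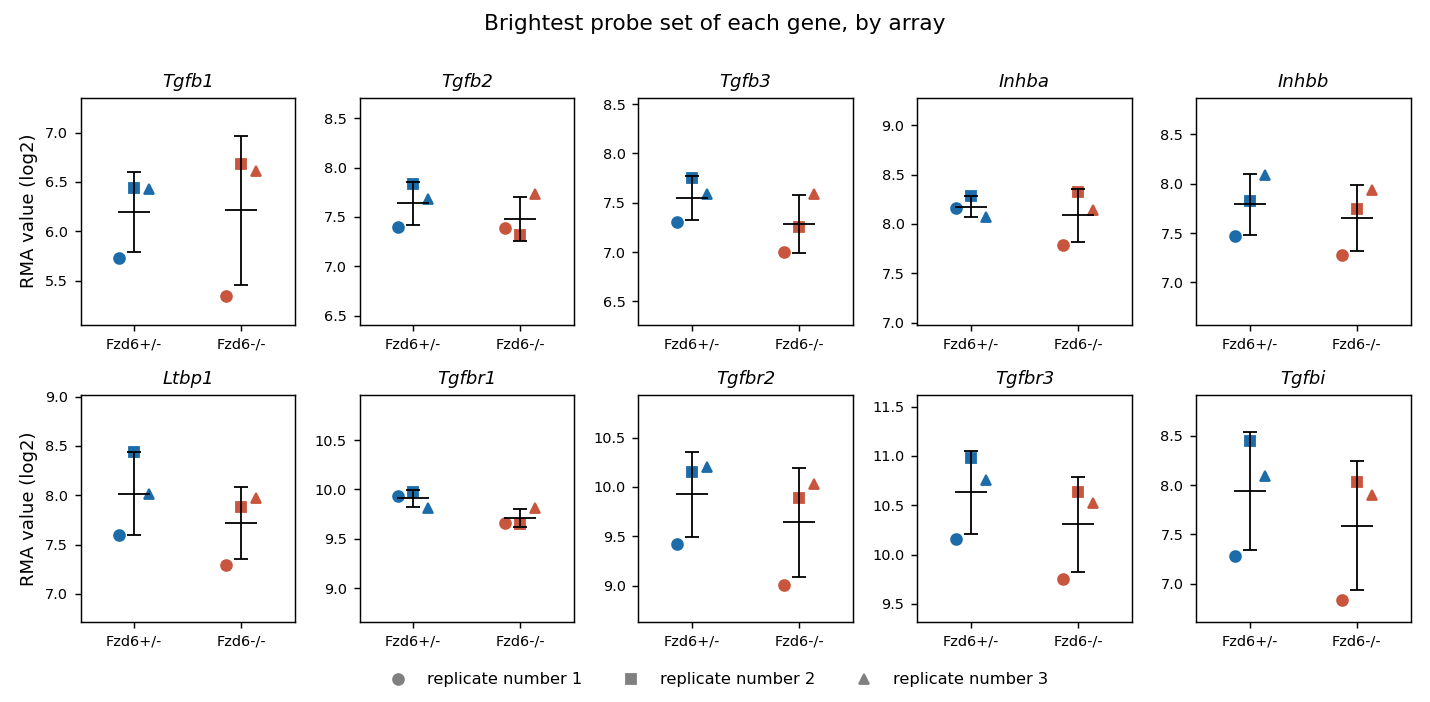
RMA value (log2, vertical axes of equal span) of the brightest probe set of each gene in the 3 control (Fzd6+/-, blue) and 3 knockout (Fzd6-/-, red) arrays, with shapes for the replicate numbers and bars for the mean ± SD of 3 arrays. The arrays numbered 1 are the lowest of their group for Tgfb1, Tgfb3, Inhbb, Ltbp1, Tgfbr2, Tgfbr3 and Tgfbi, and only the Tgfbr1 groups do not overlap.

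Among the ligand genes, Tgfb1 encodes the form best known from immune regulation and fibrosis. Its brightest probe set, 1420653_at, read 5.73, 6.44 and 6.43 in controls 1 to 3 and 5.34, 6.68 and 6.61 in knockouts 1 to 3. Both arrays numbered 1 lay below all others, knockouts 2 and 3 lay highest, and the groups overlapped. The group means of 6.20 ± 0.41 and 6.21 ± 0.75 (SD, n = 3) differed by 0.013 (95% interval −0.85 to 0.88, limma adjusted p = 0.999). Within the pairs the difference was −0.39, 0.25 and 0.18, so the sign differed between pair 1 and the rest. The dimmer probe set, at 5.09 and 5.21, differed by 0.12 (−0.10 to 0.34).

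Tgfb2, the ligand tied to hair follicle formation, was read by 4 probe sets. The brightest, 1423250_a_at, read 7.40, 7.83 and 7.69 in the controls and 7.39, 7.31 and 7.73 in the knockouts. Knockout 2 was the lowest array and knockout 3 lay between the higher controls, so the groups overlapped, with a difference of −0.16 (−0.51 to 0.19, limma adjusted p = 0.932). Probe set 1450922_a_at, of nearly the same brightness, read 7.42, 7.60 and 7.60 in the controls and 7.24, 7.14 and 7.41 in the knockouts. Here the groups did not overlap, with a gap of 0.0080 between control 1 and knockout 3, and the difference was −0.27 (−0.51 to −0.038), with an unadjusted limma p of 0.0286 and an adjusted p of 0.909. Probe set 1450923_at differed by −0.29 (−0.64 to 0.060), and the dimmest by −0.035 (−0.40 to 0.33). The 4 probe sets thus ran the same way with sizes from −0.035 to −0.29, and the 3 brightest were annotated from the same sequence record. Pair 2 gave the largest difference in each of the 4, at −0.52 in the brightest.

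Tgfb3 encodes the third TGF-beta, known for its part in palate closure and scar formation. It had 1 probe set, which read 7.31, 7.75 and 7.59 in the controls and 7.005, 7.25 and 7.59 in the knockouts. Knockouts 1 and 2 lay below all controls, knockout 3 lay level with control 3, and the groups overlapped. The means of 7.55 ± 0.23 and 7.28 ± 0.29 differed by −0.27 (−0.67 to 0.13, limma adjusted p = 0.915), and with the replicate block the interval was −0.52 to −0.021. The pair differences were −0.30, −0.50 and −0.0014, the last being near 0, and without knockout 1 the difference was −0.13.

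Inhba and Inhbb encode the beta subunits that pair to form activins. The brightest Inhba probe set read 8.16, 8.28 and 8.08 in the controls and 7.79, 8.33 and 8.14 in the knockouts. Only knockout 1 lay outside the control range on the low side, and knockout 2 was the highest array. The difference was −0.089 (−0.42 to 0.24, limma adjusted p = 0.967), and without knockout 1 it was 0.060. Inhbb read 7.47, 7.82 and 8.08 in the controls and 7.28, 7.74 and 7.94 in the knockouts. The arrays numbered 1 were lowest and the groups overlapped. Each knockout lay below the control of its number, at pair differences of −0.19, −0.083 and −0.15, and the difference of the means was −0.14 (−0.62 to 0.34, limma adjusted p = 0.960). The dimmer Inhbb probe set differed by 0.035 (−0.22 to 0.29).

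Ltbp1 encodes a matrix protein that holds latent TGF-beta in place. Its brightest probe set read 7.60, 8.44 and 8.01 in the controls and 7.30, 7.88 and 7.98 in the knockouts. Both arrays numbered 1 were lowest, control 2 was highest, and the groups overlapped. The group means of 8.02 ± 0.42 and 7.72 ± 0.37 differed by −0.30 (−0.88 to 0.28, limma adjusted p = 0.928), and the pairs gave −0.30, −0.56 and −0.032. Without control 2 the difference was −0.084 and without knockout 1 it was −0.087. Both other probe sets lay below the median level and went opposite ways, at 0.13 (−0.076 to 0.34) and −0.20 (−0.50 to 0.092).

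**Figure D2:**
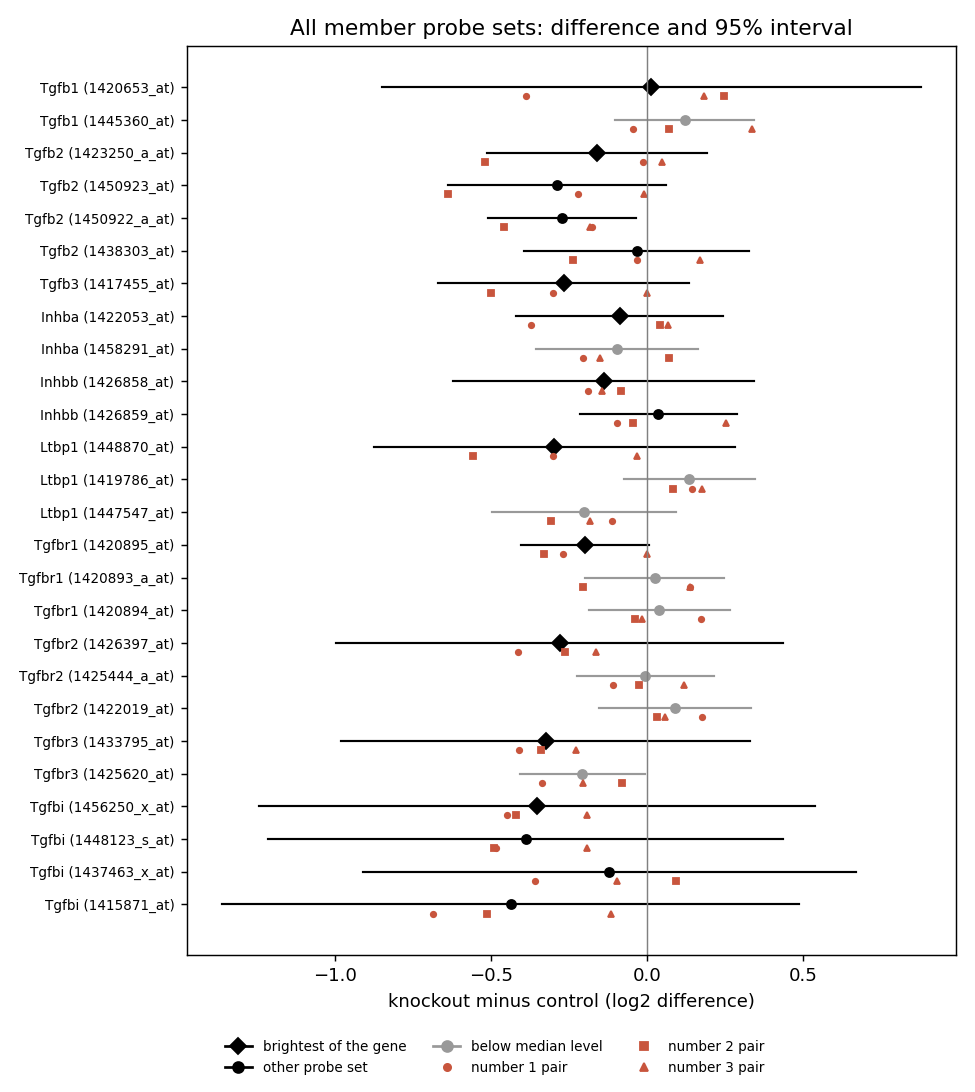
Difference between knockout and control means (log2, horizontal axis) with the 95% interval of the limma fit for each of the 26 probe sets, and the differences within replicate numbers 1 to 3 as small red symbols. Diamonds mark the brightest probe set of a gene and grey marks probe sets below the median level. Intervals exclude 0 for 1 probe set of Tgfb2 and 1 of Tgfbr3 only. In the brightest probe sets all pair symbols lie on the negative side for 7 genes. These are Tgfb3, Inhbb, Ltbp1, Tgfbr1, Tgfbr2, Tgfbr3 and Tgfbi, with pair 3 near 0 for Tgfb3 and Tgfbr1.

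Of the receptor genes, Tgfbr1 encodes the type I kinase that phosphorylates Smads. Its brightest probe set, 1420895_at, read 9.93, 9.98 and 9.82 in the controls and 9.66, 9.65 and 9.82 in the knockouts. All knockouts lay below all controls, but the gap between control 3 and knockout 3 was 0.00072, far below the spread within either group. The means of 9.91 ± 0.083 and 9.71 ± 0.093 differed by −0.20 (−0.41 to 0.0050), with an unadjusted limma p of 0.0545 and an adjusted p of 0.909. Unlike most members, Tgfbr1 was not lowest in both arrays numbered 1, and its range over the 6 arrays was 0.33. The other 2 probe sets lay at 3.20 to 3.96, far below the median level, and differed by 0.023 and 0.038.

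Tgfbr2 encodes the type II receptor that binds ligand and activates Tgfbr1. It read 9.42, 10.15 and 10.20 in the controls and 9.01, 9.89 and 10.03 in the knockouts in its brightest probe set. The arrays numbered 1 lay lowest and the groups overlapped. The group means of 9.92 ± 0.43 and 9.64 ± 0.55 differed by −0.28 (−0.997 to 0.43, limma adjusted p = 0.945), and with the replicate block the interval was −0.47 to −0.090. The pairs gave −0.42, −0.26 and −0.17, yet without knockout 1 the unpaired difference was 0.036. The dim probe sets, at 5.59 and 3.23 on average, differed by −0.0070 and 0.088.

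Tgfbr3 encodes betaglycan, a co-receptor that presents ligand, Tgfb2 above all. Its brightest probe set, 1433795_at, read 10.16, 10.98 and 10.75 in the controls and 9.75, 10.64 and 10.53 in the knockouts. Both arrays numbered 1 again lay lowest and the groups overlapped. The difference was −0.33 (−0.98 to 0.33, limma adjusted p = 0.929), and the pairs gave −0.41, −0.34 and −0.23, with a blocked interval of −0.51 to −0.14, yet without knockout 1 the unpaired difference was −0.049. The dim probe set read 5.04, 5.01 and 5.04 in the controls and 4.70, 4.93 and 4.84 in the knockouts, without overlap and with a gap of 0.082. It differed by −0.21 (−0.41 to −0.0083), with an unadjusted limma p of 0.0432 and an adjusted p of 0.909, at a level below the median of all probe sets.

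Tgfbi encodes a secreted matrix protein that TGF-beta induces in many cells. Its brightest probe set, 1456250_x_at, read 7.29, 8.45 and 8.09 in the controls and 6.84, 8.03 and 7.90 in the knockouts. This was the widest range of the 10 genes, at 1.61, with both arrays numbered 1 lowest and control 2 highest. The group means of 7.94 ± 0.60 and 7.59 ± 0.65 differed by −0.35 (−1.25 to 0.54, limma adjusted p = 0.943). Within the pairs it was −0.45, −0.42 and −0.19, and the blocked interval was −0.55 to −0.16, but without knockout 1 the unpaired difference was 0.022. The other 3 probe sets gave −0.39, −0.12 and −0.44, and 1437463_x_at, with −0.12, was positive in pair 2, at 0.092. The ending x marks probe sets whose probes may also bind other transcripts.

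Both arrays numbered 1 were the lowest 2 in 12 of 26 member probe sets and in 6 of 10 genes by the brightest probe set, where 16.6% of all probe sets and 18.8% of all genes had them lowest. The 6 genes are Tgfb1, Inhbb, Ltbp1, Tgfbr2, Tgfbr3 and Tgfbi. Averaged over the 10 genes, the deviation from each gene's own mean was −0.22, 0.34 and 0.20 in controls 1 to 3 and −0.54, 0.066 and 0.15 in knockouts 1 to 3. Knockout 1 was thus lowest and control 1 next.

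By list average, fibroblast and endothelial markers, and less uniformly erythroid markers, were also lowest in the arrays numbered 1, which not every marker list was. The 8 fibroblast markers averaged −0.26, 0.21 and 0.14 in the controls and −0.54, 0.28 and 0.17 in the knockouts, and 5 of the 8 were lowest in both arrays numbered 1. Among them Col1a1, a dermal collagen, read 10.24 in control 1 and 9.94 in knockout 1 against 11.58 to 12.10 elsewhere, whereas Dcn, the proteoglycan decorin, stayed between 13.2 and 13.4. The 7 endothelial markers averaged −0.39, 0.36 and 0.26 in the controls and −0.95, 0.36 and 0.35 in the knockouts, with 6 of 7 lowest in both arrays numbered 1. The 8 suprabasal epidermis markers averaged −0.44, −0.38 and −0.11 in the controls and 0.64, 0.18 and 0.12 in the knockouts. Of them 8 of 8 had a higher mean in the knockout, where 47.6% of all genes had a lower one. In 7 of the 8 the knockout values lay wholly above, beside 6.99% of all genes. That list was chosen with earlier results of these data known, so the comparison is a description only. The markers of these 3 lists lay at mean levels of 6.97 to 14.2, above the array medians. The 7 skeletal muscle markers averaged −0.25, 0.50 and 0.074 in the controls and −0.090, −0.52 and 0.29 in the knockouts, lowest in knockout 2. The 5 basal epidermis markers averaged 0.12, 0.071 and −0.48 in the controls and 0.38, 0.18 and −0.27 in the knockouts, lowest in the arrays numbered 3. Of the 5, 4 (Krt5, Krt14, Krt15 and Col17a1) were higher in the knockout within every numbered pair, beside 19.1% of all genes. With the replicate block these 4 had an unadjusted limma p under 0.05, beside 6.42% of all genes. Trp63 differed by −0.10, and the groups overlapped in all 5. The 6 macrophage markers lay between −0.20 and 0.20 in all arrays. The 4 erythroid markers averaged −0.094, 0.0040 and 0.23 in the controls and −0.34, 0.063 and 0.14 in the knockouts. That average was again lowest in the arrays numbered 1, but only 1 of the 4 genes, Hba-x, was lowest in both. The average of the 4 nerve and Schwann cell markers was between 0.0098 and 0.17 in the controls and between −0.13 and −0.046 in the knockouts. Only 1 of the 4, Nefl, at a level below the median, did not overlap, with a difference of −0.56. Tubb3, Stmn2 and Sox10 overlapped and differed by −0.18, −0.011 and 0.11. The part of these marker lists in the members' differences was not tested. In whole skin, fewer cells of a type and less RNA per cell cannot be told apart.

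**Figure D3:**
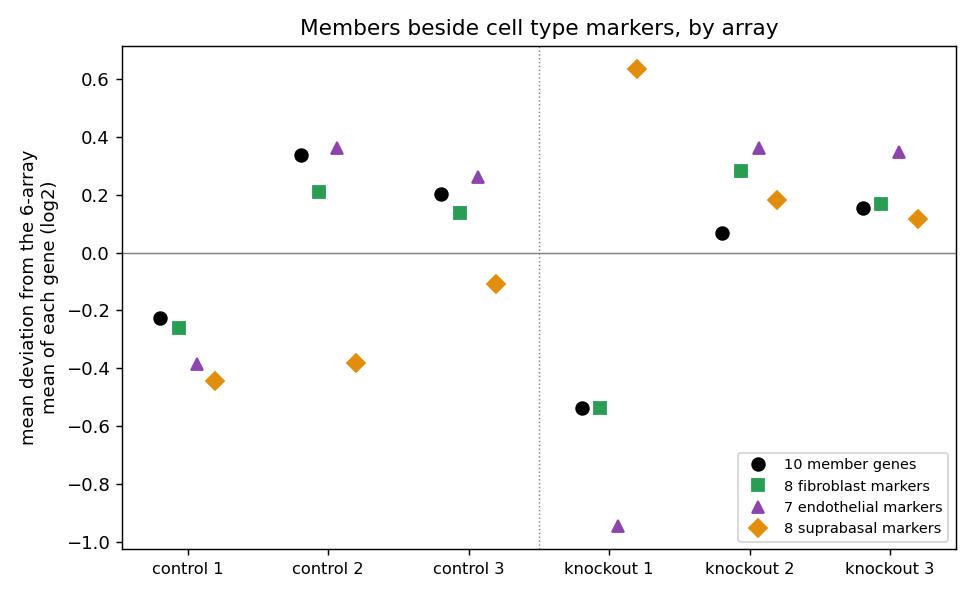
Mean deviation of each gene list from its genes' own 6-array means (log2, vertical axis) in each array, for the 10 member genes and for 8 fibroblast, 7 endothelial and 8 suprabasal epidermis markers. Members, fibroblast and endothelial markers are all lowest in knockout 1 and next lowest in control 1, while suprabasal markers are highest in knockout 1, at 0.64.

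Without both arrays numbered 1, the median difference of the 10 genes was −0.23, and the knockout and control values did not overlap in 16 of 26 member probe sets, where 39.1% of all probe sets did so with 2 arrays a group. At an unadjusted limma p under 0.05 there were 3 member probe sets in that comparison, beside 7.63% of all probe sets, and 0 passed the adjusted threshold. Without knockout 1 alone the median difference was −0.014, with 0 member probe sets at that unadjusted level beside 6.41% of all.

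Promoter sequences are shown for 3 genes that were lowest in both arrays numbered 1 (Tgfbi, Tgfbr2 and Tgfb1) and for Tgfbr1, which was not. Of the 10 genes 8 had a promoter in the RefSeq table used (GRCm38.p6), and these 4 are ones whose start site is the outer end of the annotated gene. Each run gives the 250 bases before the start site, 5′ to 3′ on the gene's strand. Capitals mark every match, on either strand, to 1 of 4 motifs, given here as read on the gene's strand. They are the Smad box with the letters CAGAC, the GC box with the letters GGGCGG, the AP-1 site with the letters TGANTCA, and the TATA box with the letters TATAAA. No printed match overlaps another.
Tgfbi, chr13:56609336-56609585, plus strand: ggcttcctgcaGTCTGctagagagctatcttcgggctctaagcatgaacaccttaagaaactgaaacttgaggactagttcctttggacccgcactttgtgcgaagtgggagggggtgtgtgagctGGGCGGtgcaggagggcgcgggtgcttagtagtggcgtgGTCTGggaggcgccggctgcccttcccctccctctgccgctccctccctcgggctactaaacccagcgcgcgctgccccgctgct
Tgfbr2, chr9:116175364-116175613, minus strand: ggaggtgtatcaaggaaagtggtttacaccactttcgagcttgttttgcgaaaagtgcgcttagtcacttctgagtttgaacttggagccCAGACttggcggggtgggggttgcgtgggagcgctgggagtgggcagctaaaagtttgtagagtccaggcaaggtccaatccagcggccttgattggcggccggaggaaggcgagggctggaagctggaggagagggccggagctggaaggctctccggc
Tgfb1, chr7:25686752-25687001, plus strand: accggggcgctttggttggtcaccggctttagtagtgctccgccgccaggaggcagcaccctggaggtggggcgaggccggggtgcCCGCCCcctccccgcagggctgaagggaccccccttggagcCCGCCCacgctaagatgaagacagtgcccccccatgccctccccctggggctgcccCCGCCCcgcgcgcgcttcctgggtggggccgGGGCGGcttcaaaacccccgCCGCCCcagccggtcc
Tgfbr1, chr4:47352972-47353221, plus strand: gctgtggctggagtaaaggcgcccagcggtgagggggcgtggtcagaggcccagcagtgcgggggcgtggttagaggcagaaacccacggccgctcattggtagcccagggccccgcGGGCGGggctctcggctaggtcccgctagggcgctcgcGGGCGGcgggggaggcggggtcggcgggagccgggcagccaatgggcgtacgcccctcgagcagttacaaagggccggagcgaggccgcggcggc

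The 3 printed genes that were lowest in the arrays numbered 1 did not share a motif in these windows. Tgfbi held 2 Smad boxes and 1 GC box, Tgfbr2 held 1 Smad box, and Tgfb1 held 5 GC boxes and 0 Smad boxes. Tgfbr1 held 2 GC boxes. Windows not printed differed again. Inhbb, also lowest in both arrays numbered 1 and with its start site at the outer end, held 1 GC box and 0 Smad boxes. Ltbp1, lowest in those arrays too, held 1 and 2 Smad boxes in its windows, and a second Tgfbr1 window held 1 Smad box and 0 GC boxes. Over all 32851 promoter windows of this length, 42.2% held the Smad box letters, 32.7% the GC box, 6.75% the AP-1 site and 12.4% the TATA box, so a match is common and is no evidence of binding. None of the 4 printed windows held the AP-1 or TATA letters. The G and C content was 62.4% for Tgfbi, 58.4% for Tgfbr2, 75.2% for Tgfb1 and 74.8% for Tgfbr1, against a median of 52.4% over all windows.

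The genes with the array pattern most like those of Tgfbi and Tgfb1, the 2 members of widest range, were found by the root mean square difference of array deviations over the 6 arrays. Probe sets above the median level with a range at least as wide were considered. For Tgfbi these were Runx1t1, a transcriptional co-repressor (0.081), Plod1, a collagen lysyl hydroxylase (0.098), and Fn1, the matrix protein fibronectin (0.098), among 226 probe sets. Fn1 read 10.42, 11.63 and 11.18 in the controls and 9.97, 11.42 and 11.10 in the knockouts. For Tgfb1 they were Creb3l1, a transcription factor of secretory cells (0.046), Cpz, a carboxypeptidase (0.056), and Rbpms, an RNA-binding protein (0.063), among 427 probe sets. These likenesses describe 6 arrays and carry no test.

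The rest of the pathway was read from 4 lists of other genes, 43 of them measured, each by its brightest probe set. None passed the adjusted threshold in limma (smallest adjusted p = 0.909). Of the 43, 25 had lower and 18 higher means in the knockout, with a median difference of −0.012 beside 0.0070 over all genes. At an unadjusted limma p under 0.05, 3 were higher and 1 lower, beside 3.17% and 1.91% of all genes. With the replicate block these were 5 (Fstl3, Bambi, Cdkn2b, Itgb8 and Itgb6) and 2 (Smad3 and Fn1), beside 6.42% and 5.73%. The groups did not overlap in 2 genes with higher knockout values and 1 with lower, beside 6.99% and 4.31% of all genes. The higher ones were Fstl3 and Bambi, and the lower one was Smad2, a transducer named here after its values were seen, with a difference of −0.12 (−0.31 to 0.067). Some dimmer probe sets, named after their values were seen, also had an unadjusted limma p under 0.05, all without overlap. Those of Thbs1 (−0.48), Ltbp3 (−0.38), Fn1 (−0.33), Tsc22d1 (−0.29) and Smad4 (−0.18) were lower. That of Acvr1b (0.28) was higher. Over all probe sets, 2.63% were lower and 2.58% higher at that level. The brightest probe sets of Ltbp3, Tsc22d1 and Smad4 differed by 0.11, 0.0085 and −0.015.

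Among 11 genes of other ligands, latency and antagonism, 7 had higher and 4 lower means. Fstl3, a follistatin-like protein that binds activins, had the smallest p of all 43. It read 7.30, 7.31 and 7.39 in the controls and 7.78, 7.73 and 7.57 in the knockouts, without overlap. The difference was 0.36 (0.16 to 0.56), with an unadjusted limma p of 0.0037 and an adjusted p of 0.909, and leaving out single arrays or numbers gave 0.30 to 0.45. Fst, the classical follistatin, differed by −0.096 (−0.36 to 0.17). Itgb8 and Itgb6, integrin subunits that release latent TGF-beta, differed by 0.31 (−0.0074 to 0.63) and 0.22 (−0.044 to 0.49), both at levels below the median of all probe sets, and a still dimmer Itgb6 probe set differed by −0.11. Mstn, Lrrc32 and Fbn1 of this list were not analysed here.

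Of the 6 other receptor genes, 4 had lower and 2 higher means. Acvrl1, a type I receptor of endothelial cells, differed by −0.21 (−0.50 to 0.076), Acvr2b, an activin type II receptor, by −0.20 (−0.54 to 0.13), and Acvr1b, the activin type I receptor, by 0.080 (−0.22 to 0.38). A dimmer Acvr1b probe set differed by 0.28 (0.0030 to 0.56). These intervals span changes in either direction for each brightest probe set.

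Of the 13 Smad genes and regulators, 9 had lower and 4 higher means. Bambi, which encodes a receptor without a kinase domain that dampens BMP and activin signalling, read 8.77, 8.45 and 9.24 in the controls and 10.23, 9.31 and 9.48 in the knockouts. Knockout 1 was highest, control 2 lowest, and the lowest knockout lay just above control 3. The means of 8.82 ± 0.40 and 9.67 ± 0.49 differed by 0.86 (0.21 to 1.502), with an unadjusted limma p of 0.0163 and an adjusted p of 0.909. Without knockout 1 and the other single arrays or numbers in turn, the difference ran from 0.55 to 1.16. Smad3, the transducer, differed by −0.25 (−0.59 to 0.10), the inhibitory Smad7 by −0.045 (−0.45 to 0.36), and Skil, a Smad co-repressor, by 0.20 (−0.099 to 0.50). Dimmer Smad3 probe sets differed by 0.029 and 0.19.

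Of 13 response genes measured, 8 had lower and 5 higher means, so the list held both directions. Cdkn2b, the cyclin-dependent kinase inhibitor that TGF-beta induces in keratinocytes, read 6.74, 6.77 and 7.35 in the controls and 7.51, 7.498 and 7.30 in the knockouts. Control 3 lay above knockout 3, so the groups overlapped. The difference was 0.48 (0.089 to 0.88), with an unadjusted limma p of 0.0227 and an adjusted p of 0.909. Cdkn1a, a second inhibitor of that class, differed by 0.25 (−0.012 to 0.51), and Acta2, the smooth muscle actin of myofibroblasts and vessels, by −0.33 (−0.65 to −0.00054, adjusted p = 0.909 in limma), or −0.66 to 0.0074 with the replicate block, with −0.095 and 0.077 in its dim probe sets. In the same arrays all 8 suprabasal markers, a list chosen with earlier results of these data known, had higher means in the knockout. Of the 8, 7 did not overlap, beside 6.99% of all genes. Of these markers 0 passed the adjusted test in limma. Skeletal muscle markers had lower means in 7 of 7, with a median of −0.21, but all 7 overlapped between the groups, and without both arrays numbered 2, an alternative added after seeing the data, the median was 0.21. Their part in the pathway genes' differences was not tested.

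**Figure D4:**
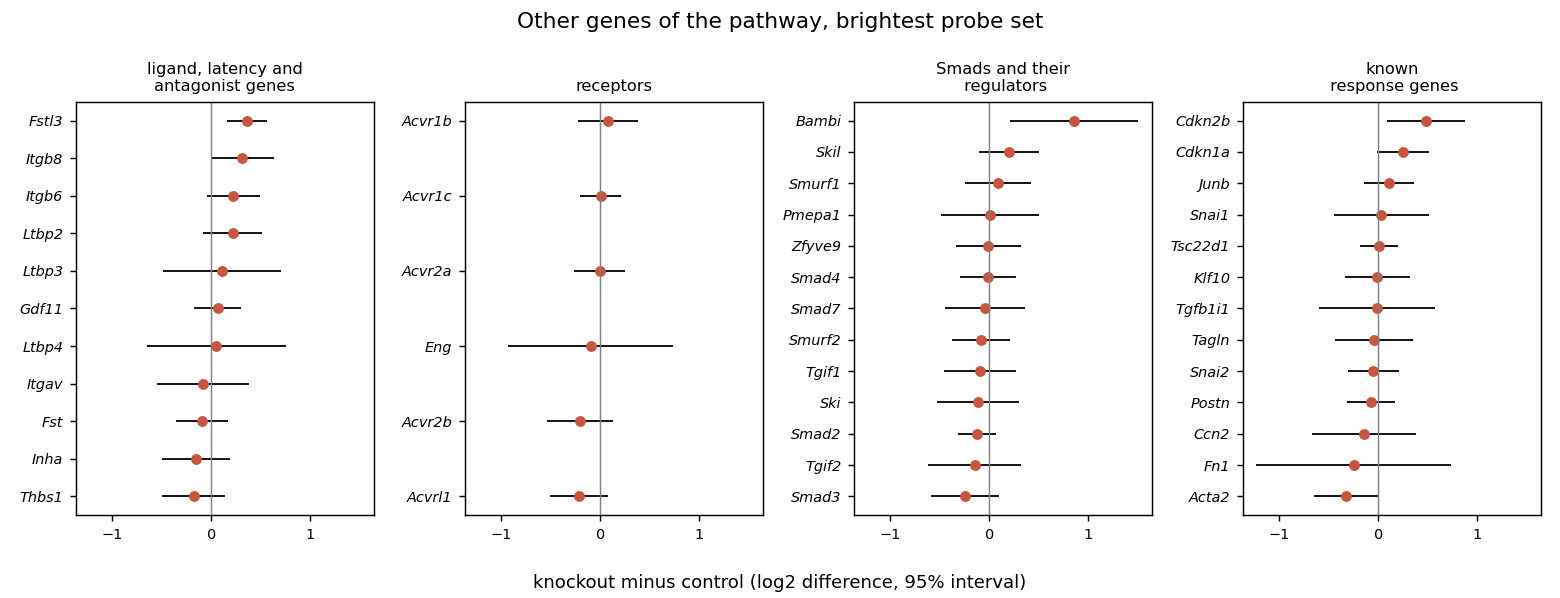
Difference between knockout and control means (log2, horizontal axes) with the 95% interval of the limma fit for the brightest probe set of 43 other pathway genes in 4 lists. Fstl3, Bambi and Cdkn2b lie above 0 with their whole intervals and the interval of Acta2 ends just below 0, while with the replicate block it includes 0. The other 39 intervals include 0.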

How the data were processed

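The deposited values are probe set summaries made with RMA by the authors, as the submitters' processing notes record with no version. No source used here states the log base, and the deposited values, which span 2.39 to 14.8, were read as log2. Of 45101 rows, 64 array control probe sets were left out, and dim probe sets were kept. Names came from the platform annotation, updated through Entrez identifiers to GRCm38.p6, and 34945 probe sets had 1 symbol, 932 several and 9160 none. A gene's value is its probe set of the highest mean over 6 arrays. Group differences came from limma 3.58.1 under R 4.3.3 (a 2-group linear model with moderated variances, two-sided tests, Benjamini-Hochberg adjustment over all probe sets, 95% intervals), and the fit was tested on simulated data. Members and lists were chosen with earlier results of these data known. All members were named, and of the other lists the genes with an unadjusted p under 0.05, the 3 smallest p of each list and Smad3, Smad7, Fst and Acvr1b, with Fzd6 as a check.

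The replicate numbers were used as pairs on the values alone. After the group means were removed, arrays of numbers 1, 2 and 3 correlated at 0.568, 0.359 and 0.124, all above the set minimum of 0.1. What a number marks is not stated in the labels, and control 2 correlated more with knockout 3 (0.422). No arrays were duplicates. Promoter windows came from RefSeq tables. Detection calls were not made. Plots used matplotlib 3.10.9 (Python 3.11.15).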

Additional observations from a re-analysis of the deposited data

How the results depend on the processing

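No member passed the adjusted threshold in any of the alternatives: the replicate block, a variance trend, probe sets above the median level only, centred arrays, array weights, the mean of a gene's probe sets, the absence of x and s probe sets, and each array or number left out. With the replicate block the count on the whole array was 3 instead of 0, that of member probe sets at an unadjusted p under 0.05 was 11 instead of 2, and that of the 43 other pathway genes was 7 instead of 4. At the adjusted threshold the pairing changed no call of a member, pathway or marker gene. At the unadjusted level it also changed marker genes, among them Krt14, Pdgfra and Pecam1. The member count was 1 among probe sets above the median level, where fewer probe sets entered, and 1 with centred arrays. With arrays or numbers left out, it ranged from 0 to 4, the pathway count from 2 to 5, and member probe sets without overlap from 4 to 16, where fewer arrays make overlap rarer (18.3% to 39.1% of all probe sets). The median difference of the 10 genes ranged from −0.36 to −0.014. Of 208 alternative values of single genes, which cover the 10 members and Fstl3, Bambi and Cdkn2b, 13 had the other sign, all of them in members. Inhba was at 0.011 with array weights. With arrays left out, Tgfb1 ranged from −0.22 to 0.45, Tgfb2 from −0.29 to 0.017, Inhba from −0.21 to 0.060, Inhbb from −0.30 to 0.047, Tgfbr2 from −0.53 to 0.036 and Tgfbi from −0.68 to 0.022. Tgfb3 ranged from −0.42 to −0.13, Ltbp1 from −0.51 to −0.084, Tgfbr1 from −0.30 to −0.14 and Tgfbr3 from −0.56 to −0.049. The median of the suprabasal markers ranged from 0.27 to 0.64 and that of the skeletal muscle markers from −0.43 to 0.21, both alternatives chosen after seeing the data. The cause was not tested. Detection above background is unknown here, which limits the dim probe sets most.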
